A study of Mus musculus with 14 samples.

Results

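The immunoglobulin constant genes and the J chain were followed in the hippocampus of lupus-prone mice and of their controls. The 10 genes are the heavy chain genes Ighm, Ighg1, Ighg2b, Ighg2c, Ighg3 and Igha, the light chain genes Igkc, Iglc1 and Iglc2, and Jchain. They were chosen by symbol, as the rows of the count table whose Ensembl identifier carries that name in GENCODE M21. They are 10 of 55536 Ensembl genes in the table, and all 10 had at least 10 counts over the 14 libraries, the minimum set for a test.

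An antibody is built of heavy and light chains, each with a variable end that binds antigen and a constant end that sets its class. Ighm encodes the constant region of IgM, the class a B cell makes first. Class switching then replaces it with an IgG or IgA constant region, and plasma cells secrete the product. Jchain encodes the joining chain that links IgM and IgA into polymers. Lupus is known for autoantibodies, many of them of IgG classes, and an intact hippocampus holds few B lineage cells.

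The IgG classes differ most in the hinge, the flexible stretch between the arms and the stem of the antibody, which has an exon of its own. These exons are shown because the comparisons between groups turn on which IgG gene carried the counts. All lie on chromosome 12, minus strand, in mm10 coordinates, as exon 2 of the gene, and were read 5′ to 3′ from the GENCODE M21 transcripts. Capitals mark the in-frame cysteine codons, since cysteines of the hinge form disulfide bridges between the heavy chains.

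Ighg1 hinge, chr12:113329844-113329882: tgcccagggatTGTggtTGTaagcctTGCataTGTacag

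Ighg2b hinge, chr12:113307261-113307326: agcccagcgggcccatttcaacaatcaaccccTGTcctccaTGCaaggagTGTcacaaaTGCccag

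Ighg2c hinge, chr12:113288263-113288325: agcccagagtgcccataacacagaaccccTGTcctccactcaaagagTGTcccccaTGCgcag

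Ighg3 hinge, chr12:113360529-113360576: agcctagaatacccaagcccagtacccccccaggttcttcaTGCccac

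The hinge of Ighg1 and that of Ighg2b hold 4 cysteine codons each, that of Ighg2c holds 3 and that of Ighg3 holds 1. Ighg2b and Ighg2c are the closest pair, with 51 of 66 aligned positions identical (77.3%), and Ighg1 and Ighg3 the most distant, with 22 of 58 (37.9%). In the transcripts of the 10 genes, no stretch of 100 bases was identical between any member and another immunoglobulin constant gene compared. Reads from shorter stretches of near-identical sequence could still have been split between the IgG genes, and between Iglc2 and its relative Iglc3.

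Ighm also has forms that differ at their end. The membrane form anchors the B cell receptor, and the secreted form is the circulating antibody. The coding tail of the secreted form, in exon 4 of the transcript Ighm-201, and the first membrane exon, exon 5 of Ighm-202, are shown because the share of these forms was read in each mouse.

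Ighm secreted tail, chr12:113420870-113420928: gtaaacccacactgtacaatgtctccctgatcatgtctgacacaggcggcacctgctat

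Ighm first membrane exon, chr12:113418953-113419068: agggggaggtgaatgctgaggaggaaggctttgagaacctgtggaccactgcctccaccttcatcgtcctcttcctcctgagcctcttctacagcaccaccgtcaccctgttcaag

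Hippocampal RNA came from 14 mice of 10 months, 1 library each. There were 4 MRL mice, which are B6.MRL-Faslpr/J and carry the lpr mutation of the death receptor gene Fas, and 4 MRL-IRAK4-KD mice, which carry lpr and a kinase-dead form of IRAK4, a kinase of Toll-like and interleukin-1 receptor signalling. The controls were 3 C57BL/6 mice and 3 IRAK4-KD mice, which carry kinase-dead IRAK4 without lpr by their label. All groups are on the C57BL/6 background, and the kinase-dead form is carried by every cell of the animal, so that no effect can be placed in brain or immune cells. The mice were perfused with cold PBS before dissection, and their sex and cage are not in the labels used here. Nothing in the labels ties mice of different groups together.

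Libraries held between 279723718 and 571925600 counts over Ensembl genes, and 3 of them stood apart. The library labelled IRAK4-KD replicate 3 had 0 counts of the full-length Fas transcript and 514 counts of the transcript with an extra exon, as the lpr libraries did (0 and 268 to 964 counts), while IRAK4-KD replicates 1 and 2 had 360 and 386 counts of the full-length transcript. MRL-IRAK4-KD replicate 4 had a score of 123.8 on the first principal component, against -21.19 to 5.148 in all others, and the summed level of 10 choroid plexus markers reached 7917 CPM (counts per 1000000 counts of the library, scaled by TMM factors) there. MRL replicate 3 had 87.4 CPM of 8 pituitary markers, against at most 6.41 in the rest. Calls of the members, transcript shares and summed levels are given with and without them, and the DESeq2 fit without them was added after the data were seen. In all groups the 8 hippocampal neuron markers summed to between 3500.0 and 5178 CPM.

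Among the members, Ighm held 81.6% of all counts, Igkc 7.25%, Jchain 4.77% and Ighg2c 3.40%, and each of the other 6 held less than 1%. Per kilobase of transcript, the mean over the 14 libraries was 11.8 CPM for Ighm, 3.59 for Igkc, 0.656 for Ighg2c and 0.565 for Jchain. It was 0.214 for Ighg1, 0.148 for Igha and 0.144 for Ighg2b. Iglc1 (0.0652), Iglc2 (0.0512) and Ighg3 (0.0362) came last. Of these neighbours, Ighm and Igkc overlapped in range (8.74 to 15.03 against 0.132 to 18.7), and so did every later pair, so the order describes means only.

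The genes also differed in how they varied between mice. Across the 14 libraries the coefficient of variation was 18.3% for Ighm and 42.7% for Jchain. It was 92.7% for Ighg2c, 139% for Igkc and 202.1% for Ighg1, and highest for Ighg3 (214.4%), which was at 0 in 6 libraries. The most abundant member was thus the steadiest, with its highest library 1.66 times its lowest, against 15.1 times for Ighg2c and 141 times for Igkc.

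**Figure D1:**
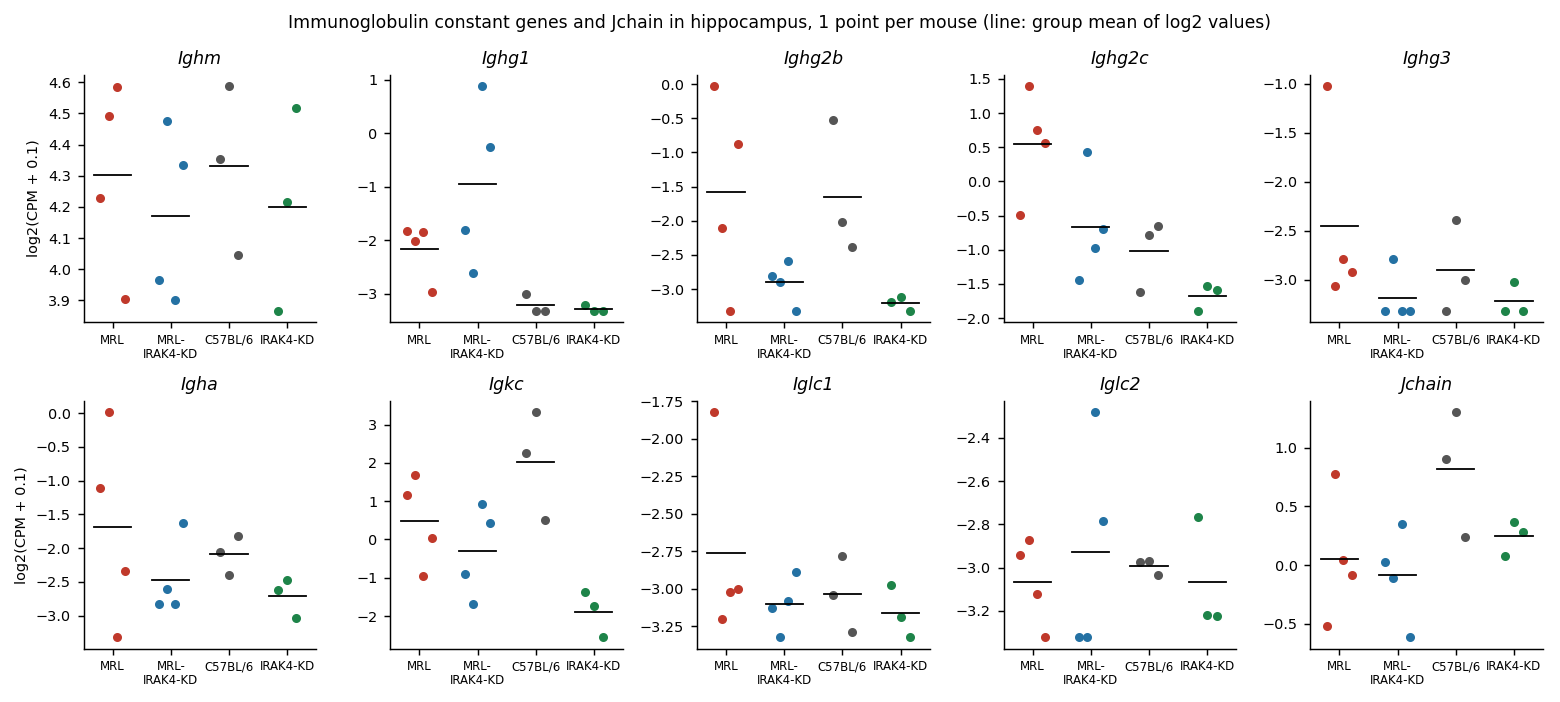
Level of each of the 10 genes as log2(CPM + 0.1) on the y axis (scales differ between panels), 1 point per mouse, with the group mean as a line (n = 4 for each lpr group and n = 3 for each control). Ighm spans less than 1 log2 unit in all, Ighg2c of all MRL mice lies above that of all C57BL/6 mice, and Igkc of all C57BL/6 mice lies above that of all IRAK4-KD mice.

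Ighm (ENSMUSG00000076617.9, chromosome 12, 113418558 to 113422730, minus strand) had 18.6, 22.4, 23.9 and 14.9 CPM in MRL mice 1 to 4. It had 15.5, 22.2, 14.8 and 20.1 CPM in MRL-IRAK4-KD mice, 20.4, 24.0 and 16.4 CPM in C57BL/6 mice, and 14.5, 18.5 and 22.8 CPM in IRAK4-KD mice. The 4 groups overlapped fully. The means were 19.96 ± 4.04 (SD, n = 4), 18.2 ± 3.54 (n = 4), 20.2 ± 3.77 (n = 3) and 18.6 ± 4.17 (n = 3). The edgeR log2 fold change of MRL over MRL-IRAK4-KD was 0.14 ± 0.19 (SE, adjusted p = 0.789), with a 95% interval of -0.24 to 0.51. The interval was -0.42 to 0.38 for MRL against C57BL/6 mice and -0.55 to 0.31 for IRAK4-KD against C57BL/6 mice. It was -0.44 to 0.37 for MRL-IRAK4-KD against IRAK4-KD mice. These intervals were taken from the SE by a normal distribution, which makes them somewhat too narrow for groups this small.

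The membrane form held most of the Ighm signal. Of 114997 Ighm counts, 79589 were given to the membrane transcript Ighm-202, and per length its share lay between 49.5% and 79.6% in the 14 mice. The share was 69.0% ± 7.36 (SD, n = 4) in MRL-IRAK4-KD and 66.2% ± 6.74 (n = 4) in MRL mice, which overlapped. It was 61.3%, 49.5% and 60.03% in C57BL/6 mice, and 79.6%, 77.4% and 68.5% in IRAK4-KD mice. All 3 IRAK4-KD mice lay above all 3 C57BL/6 mice, with means of 75.2% ± 5.90 and 56.95% ± 6.51, and replicate 3, with the lpr form of Fas, was the lowest of them. Without that library the IRAK4-KD mean was 78.5% ± 1.55 (n = 2). The 2-sided exact permutation p was 0.1, the smallest that 3 mice against 3 can give. The secreted transcript Ighm-201 had 4.33 ± 2.02 CPM (SD, n = 3) in these IRAK4-KD mice and 8.22 ± 2.77 (n = 3) in C57BL/6, which overlapped, and the membrane transcript 14.3 ± 2.25 and 12.02 ± 1.46. These forms share all but their ends, so that their split rests on few bases of each molecule.

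Ighg2c encodes the IgG2c constant region, the IgG class of C57BL/6 mice that interferon-gamma and Toll-like receptor signals are known to favour. Ighg2c (ENSMUSG00000076612.8, chromosome 12, 113285325 to 113288932, minus strand) had 0.611, 2.54, 1.58 and 1.38 CPM in MRL mice 1 to 4, which is 284 to 1450 counts. It had 0.268, 1.25, 0.411 and 0.518 CPM in MRL-IRAK4-KD mice. The controls had 0.225, 0.480 and 0.536 CPM (C57BL/6) and 0.169, 0.245 and 0.231 CPM (IRAK4-KD). All 4 MRL mice lay above all C57BL/6 mice, and all 4 MRL-IRAK4-KD mice above all IRAK4-KD mice, while MRL and MRL-IRAK4-KD mice overlapped through MRL replicate 1 and MRL-IRAK4-KD replicate 2.

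Ighg2c was 3.69 times as high in the mean of MRL as of C57BL/6 mice, a log2 fold change of 1.88 ± 0.55 (edgeR, adjusted p = 0.649). DESeq2 gave the same gene an adjusted p of 0.0442, and of 0.0475 without the 3 libraries. The log2 difference was 1.32 ± 0.49 for MRL over MRL-IRAK4-KD (edgeR, adjusted p = 0.437), and the exact permutation p was 0.0571. For MRL-IRAK4-KD over IRAK4-KD it was 1.51 ± 0.55 (edgeR, adjusted p = 0.553). Without the 3 libraries that stood apart, these differences were 1.88 ± 0.64, 1.25 ± 0.63 and 1.63 ± 0.75 (edgeR, adjusted p = 0.471, 0.733 and 0.806), so none passed the threshold by edgeR either way. The interaction, which is the difference of kinase-dead from intact mice with lpr minus the same difference without lpr, was -0.38 ± 0.74 for this gene (edgeR, adjusted p = 0.967).

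Ighg1 encodes IgG1, a class known to follow interleukin-4 signals. Ighg1 (ENSMUSG00000076614.7, chromosome 12, 113325240 to 113330523, minus strand) had 84, 84, 84 and 13 counts in MRL mice (0.181, 0.147, 0.177 and 0.0272 CPM). It had 89, 23, 760 and 229 counts in MRL-IRAK4-KD mice (0.184, 0.0646, 1.75 and 0.737 CPM). In C57BL/6 mice it had 9, 0 and 0 counts, and in IRAK4-KD mice 3, 0 and 0. Every mouse of both lpr groups thus lay above every mouse of both control groups, narrowly between MRL replicate 4 and C57BL/6 replicate 1 (0.0272 against 0.0244 CPM). The library labelled IRAK4-KD replicate 3 was among the controls at 0.

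In sums over groups, Ighg1 had 1101 counts in MRL-IRAK4-KD and 3 in IRAK4-KD mice, a ratio of 314 after scaling by library size, with a 95% counting interval of 107 to 1530. It had 265 counts in MRL and 9 in C57BL/6 mice, a ratio of 15.8 with an interval of 8.17 to 34.8. These intervals, like those on counts below, treat each count as an independent read, which makes them too narrow even for counting error. They do not cover the spread between mice. MRL-IRAK4-KD replicate 3 held 760 of the 1101 counts, and without it the first ratio was 134 (45.5 to 654) and the log2 difference by edgeR 6.96. Without the library labelled IRAK4-KD replicate 3 the ratio was 186, and without IRAK4-KD replicate 1 its group was at 0. The second ratio was 9.73 without C57BL/6 replicate 3, and without C57BL/6 replicate 1, which held all 9 counts, that group was at 0. Across all genes, edgeR gave an adjusted p of 0.143 for MRL-IRAK4-KD against IRAK4-KD and of 0.807 for MRL against C57BL/6, and DESeq2 gave 0.000334 and 0.311. Without the 3 libraries, edgeR's adjusted p was 0.639 and 0.604 and that of DESeq2 0.0548 and 0.382, so that the DESeq2 call of Ighg1 did not pass the threshold without them. The log2 difference of MRL over MRL-IRAK4-KD was -2.36 ± 1.02 (edgeR, adjusted p = 0.439), and it was -1.26 without MRL-IRAK4-KD replicate 3, the mouse with the most Ighg1.

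Ighg2b, the IgG2b gene, varied widely within groups. Ighg2b (ENSMUSG00000076613.4, chromosome 12, 113302965 to 113307933, minus strand) had 411, 76, 0 and 214 counts in MRL mice and 21, 12, 29 and 0 in MRL-IRAK4-KD mice. It had 219, 42 and 37 counts in C57BL/6 mice and 4, 6 and 0 in IRAK4-KD mice. MRL and MRL-IRAK4-KD mice overlapped only through MRL replicate 3, at 0 counts, and all C57BL/6 mice lay above all IRAK4-KD mice. The log2 difference of MRL over MRL-IRAK4-KD was 3.31 ± 1.31 (edgeR, adjusted p = 0.437) and 3.34 ± 0.80 without the 3 libraries (adjusted p = 0.278), where DESeq2 gave 3.35 ± 0.76 (adjusted p = 0.0018). With limma-voom and all libraries the sign turned, to -0.90 ± 1.69 (adjusted p = 0.861). For C57BL/6 over IRAK4-KD, 298 against 10 counts gave a ratio of 38.1 with a counting interval of 20.4 to 80.2 (edgeR, adjusted p = 1.0). C57BL/6 replicate 1 held 219 of the 298 counts, and without it the ratio was 15.5 (7.98 to 33.5). The ratio was 67.2 without IRAK4-KD replicate 2 and 22.5 without replicate 3. For IRAK4-KD over C57BL/6 the log2 difference by edgeR lay between -5.84 and -3.86 on leaving out 1 mouse. It was -4.45 ± 1.07 without the 3 libraries (edgeR, adjusted p = 0.289), and DESeq2 then gave -4.48 ± 0.94 (adjusted p = 0.000598).

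Ighg3, the IgG3 gene (ENSMUSG00000076615.4, chromosome 12, 113356224 to 113361232, minus strand), was at 0 in 6 of 14 libraries. It had 183, 11, 21 and 15 counts in MRL mice, and in MRL-IRAK4-KD mice 16 counts in replicate 2 and 0 in the rest. The controls had 0, 26 and 10 counts (C57BL/6) and 0, 9 and 0 counts (IRAK4-KD). Its log2 difference of MRL over MRL-IRAK4-KD was 3.44 ± 1.74 (edgeR, adjusted p = 0.446), and 1.49 without MRL replicate 1.

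Read together, the 4 IgG genes summed to 2.07, 2.84, 1.80 and 1.88 CPM in MRL mice. They summed to 0.495, 1.39, 2.22 and 1.26 CPM in MRL-IRAK4-KD mice, 0.842, 0.717 and 0.651 CPM in C57BL/6 mice and 0.186, 0.283 and 0.231 CPM in IRAK4-KD mice. MRL lay above C57BL/6, and C57BL/6 above IRAK4-KD, with no overlap, while MRL-IRAK4-KD spanned from below C57BL/6 to within MRL. The sums without the 3 libraries were 1.88 to 2.84 CPM in MRL, 0.495 to 2.22 in MRL-IRAK4-KD and 0.186 to 0.283 in IRAK4-KD mice, and the order was the same. Per length, Ighg2c was the largest class in 10 of 14 mice. The exceptions were MRL replicate 1 and C57BL/6 replicate 1, where Ighg2b led with 42.9% and 71.5%, and MRL-IRAK4-KD replicates 3 and 4, where Ighg1 led with 79.1% and 59.5%. No test is given for these sums, since the genes were added after earlier results were known.

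**Figure D2:**
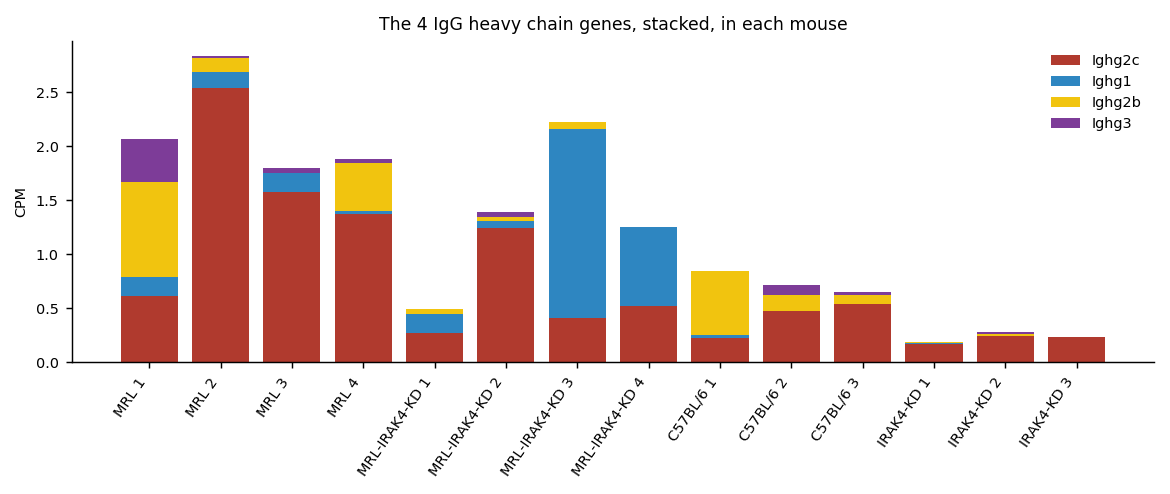
CPM (y axis, from 0) of the 4 IgG heavy chain genes Ighg2c, Ighg1, Ighg2b and Ighg3, stacked, in each of the 14 mice. The MRL bars reach 1.80 to 2.84 CPM and the IRAK4-KD bars 0.186 to 0.283 CPM, and Ighg1 is the largest part in MRL-IRAK4-KD replicates 3 and 4.

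Summed levels of markers of blood, choroid plexus and microglia were read in the same mice. The summed level of 10 blood markers lay between 86.0 and 376 CPM in MRL, 54.3 and 197 in MRL-IRAK4-KD, 45.0 and 95.2 in C57BL/6 and 21.8 and 60.6 in IRAK4-KD mice. Choroid plexus markers, 10 genes, lay between 74.1 and 1695 CPM in MRL, 162 and 7917 in MRL-IRAK4-KD, 122 and 449 in C57BL/6 and 170 and 1479 in IRAK4-KD mice. The 8 microglia markers summed to between 346 and 446 CPM in MRL, above every mouse of the other groups. Their sum lay between 315 and 333 in MRL-IRAK4-KD, 289.6 and 309 in C57BL/6 and 282 and 311 in IRAK4-KD mice. None of these markers was at 0 in all libraries, and their part in the immunoglobulin levels was not tested. In bulk tissue, fewer cells of a type and less RNA per cell cannot be told apart.

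Igha encodes the IgA constant region, the class of mucosal secretions. Igha (ENSMUSG00000095079.6, chromosome 12, 113254830 to 113260236, minus strand) had 169, 521, 0 and 47 counts in MRL mice and 20, 23, 18 and 69 in MRL-IRAK4-KD mice. It had 52, 26 and 74 counts in C57BL/6 and 25, 32 and 12 in IRAK4-KD mice. MRL replicate 2 was the highest and MRL replicate 3, at 0, the lowest. In CPM, C57BL/6 mice (0.0905 to 0.182) lay above IRAK4-KD mice (0.0216 to 0.0801) by a narrow margin, a log2 difference of -1.35 ± 1.25 for IRAK4-KD over C57BL/6 (edgeR, adjusted p = 1.0), and of -0.96 ± 0.72 without the 3 libraries (adjusted p = 0.936). For MRL over MRL-IRAK4-KD, the log2 difference of Igha was 1.91 ± 1.08 with all libraries (edgeR, adjusted p = 0.467), and the groups overlapped. With limma-voom the sign turned, to -1.10 ± 1.51 (adjusted p = 0.792). Without the 3 libraries the difference was 3.23 ± 0.67 (edgeR, adjusted p = 0.156), and DESeq2 called it there (adjusted p = 0.000351). Those fits leave out MRL replicate 3, at 0 counts, and MRL-IRAK4-KD replicate 4, the highest of its group at 69 counts.

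Among the light chains, Igkc, which encodes the kappa constant region, carried most of the signal and had the widest range in CPM, although Iglc1 varied more relative to its mean (coefficient of variation 155% against 139%). Igkc (ENSMUSG00000076609.2, chromosome 6, 70726435 to 70726966, plus strand) lies within the lincRNA gene Gm30211 on the same strand. It had 4.70, 9.93 and 1.33 CPM in C57BL/6 mice and 0.290, 0.200 and 0.0703 CPM in IRAK4-KD mice. In the lpr groups it had 2.12, 3.09, 0.418 and 0.922 CPM (MRL) and 0.431, 0.211, 1.82 and 1.24 CPM (MRL-IRAK4-KD). The C57BL/6 controls were therefore the highest group and IRAK4-KD the lowest, with no overlap between these. MRL-IRAK4-KD mice overlapped every other group, and MRL mice overlapped all but IRAK4-KD mice.

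Igkc had 5130 counts in C57BL/6 and 236 in IRAK4-KD mice, a ratio of 27.8 with a counting interval of 24.4 to 31.8. C57BL/6 replicate 2 held 2853 of the 5130 counts, and without it the ratio was 16.9 (14.8 to 19.4). The log2 difference of IRAK4-KD over C57BL/6 was -4.84 ± 1.02 (edgeR, adjusted p = 0.17), and DESeq2 called it at an adjusted p of 0.000143. Without the library labelled IRAK4-KD replicate 3, which had the lowest Igkc of all, it was -4.44 ± 1.18 (edgeR, adjusted p = 0.783), and without all 3 libraries DESeq2 still called it (adjusted p = 0.00328). Between MRL and C57BL/6 mice it was -1.70 ± 0.81 (edgeR, adjusted p = 0.899), and for MRL over MRL-IRAK4-KD 0.83 ± 0.75 (adjusted p = 0.653). The interaction was 4.01 ± 1.20 (edgeR, adjusted p = 0.915), which did not pass the threshold, and it was 3.12 ± 1.47 without the 3 libraries.

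The lambda genes were near the limit of detection. Iglc1 (ENSMUSG00000105906.1, chromosome 16, 19061618 to 19062071, minus strand), which overlaps the antisense gene 2010309G21Rik, had 0 to 85 counts per library, with the highest value in MRL replicate 1. Iglc2 (ENSMUSG00000076937.3, chromosome 16, 19198396 to 19200351, minus strand), which overlaps the joining segment Iglj2, had 0 to 46 counts, with the highest in MRL-IRAK4-KD replicate 3. If each count were an independent read, a count of 0 would allow up to 3 counts, which is 0.00645 CPM in MRL replicate 1. The groups overlapped for both genes in the 4 comparisons, and no edgeR p was below 0.05. Per length, kappa made up at least 77.0% of the summed signal of Igkc, Iglc1 and Iglc2 in each mouse.

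Heavy and light chains were not in proportion. Per length, the light chain members Igkc, Iglc1 and Iglc2 summed to 0.0104 to 0.0810 of Ighm in IRAK4-KD mice. They summed to 0.250 to 1.25 of it in C57BL/6 mice. The ratio was 0.0593 to 0.427 in MRL and 0.0289 to 0.406 in MRL-IRAK4-KD mice. In 13 of 14 mice the Ighm level therefore exceeded the sum of these light chain members, the exception being C57BL/6 replicate 2. Iglc3 was not part of this sum. The ratio without the 3 libraries was 0.198 to 0.427 in MRL, 0.0289 to 0.406 in MRL-IRAK4-KD and 0.0369 to 0.0810 in IRAK4-KD mice.

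Jchain (ENSMUSG00000067149.6, chromosome 5, 88519809 to 88527891, minus strand) had 0.598, 1.61, 0.931 and 0.842 CPM in MRL and 0.918, 0.828, 1.18 and 0.554 CPM in MRL-IRAK4-KD mice. It had 1.77, 2.37 and 1.08 CPM in C57BL/6 and 0.959, 1.19 and 1.12 CPM in IRAK4-KD mice. All groups overlapped. MRL over C57BL/6 was -0.80 ± 0.34 on the log2 scale (edgeR, adjusted p = 0.895) and -0.77 ± 0.36 without the 3 libraries, and MRL over MRL-IRAK4-KD was 0.19 ± 0.32 (adjusted p = 0.828).

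Most Jchain counts did not fall on the transcript that encodes the protein. Of 6723 counts, 1609 (23.9%) were given to the protein-coding transcript Jchain-201 and the rest to the retained-intron transcript Jchain-202. Per length, the protein-coding share was 55.3%, 36.3% and 39.5% in C57BL/6 mice and 10.4%, 19.2% and 30.8% in IRAK4-KD mice, with no overlap (exact permutation p = 0.1, the smallest possible). Without replicate 3 the IRAK4-KD mean was 14.8% ± 6.23 (n = 2). In MRL mice it was 45.8%, 49.4%, 23.8% and 42.5%. In MRL-IRAK4-KD mice it was 4.09%, 40.5%, 30.2% and 0, a difference from MRL of 21.7 percentage points with overlap (exact permutation p = 0.143). Over 4 comparisons of each of both genes, no exact p for a share was lower than 0.1.

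**Figure D3:**
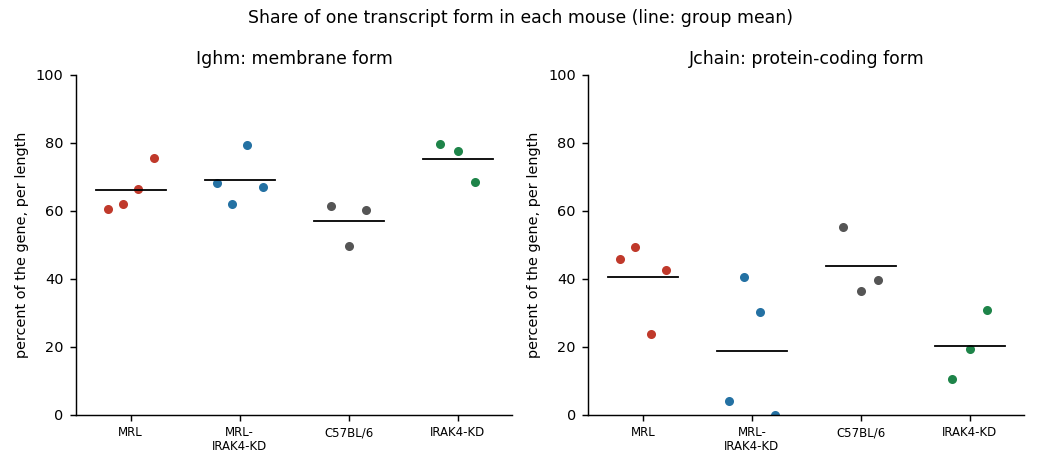
Share of the gene's signal per length (y axis, percent, 0 to 100) of the Ighm membrane form on the left and of the protein-coding Jchain transcript on the right, 1 point per mouse with the group mean as a line. For Ighm the IRAK4-KD points (68.5% to 79.6%) lie above the C57BL/6 points (49.5% to 61.3%), and for Jchain they lie below.

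The variable segments were read beside the constant genes, since a rearranged antibody transcript carries both. Of 348 variable segments in the annotation, 104 had at least 3 counts in some library and 47 of these in exactly 1 library. The number with at least 3 counts per mouse was 12 to 39 in MRL, 5 to 23 in MRL-IRAK4-KD, 24 to 31 in C57BL/6 and 6 or 7 in IRAK4-KD mice. Summed over segments, the level was 0.686 to 4.27 CPM in C57BL/6 and 0.0739 to 0.120 CPM in IRAK4-KD mice, without overlap. It was 0.184 to 1.16 CPM in MRL and 0.129 to 0.990 CPM in MRL-IRAK4-KD mice, which overlapped. These ranges without the 3 libraries were 0.109 to 0.120 in IRAK4-KD, 0.280 to 1.16 in MRL and 0.157 to 0.990 in MRL-IRAK4-KD mice.

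The segments in use differed between mice. Igkv4-55 had 223, 536 and 74 counts in C57BL/6 mice 1 to 3, 3 counts in MRL replicate 3 and 0 in the other 10 libraries, and it made up 24.8% (95% Wilson interval 22.1% to 27.7%), 43.7% (40.9% to 46.4%) and 26.5% (21.7% to 32%) of the variable counts of those C57BL/6 mice. Its edgeR adjusted p was 0.0622 between IRAK4-KD and C57BL/6 mice and 0.24 between MRL and C57BL/6 mice. Igkv8-27 had 199 counts in MRL-IRAK4-KD replicate 3, which is 46.2% (41.5% to 50.9%) of its variable counts, and 97 and 24 counts in MRL replicates 1 and 2, with 0 to 14 in the other libraries. Igkv2-109 had 168 counts in C57BL/6 replicate 1 and Ighv9-2 had 94 in MRL replicate 1, and both were at 0 elsewhere. Igkv6-20 was the most widely found, at 3 counts or more in 12 libraries.

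**Figure D4:**
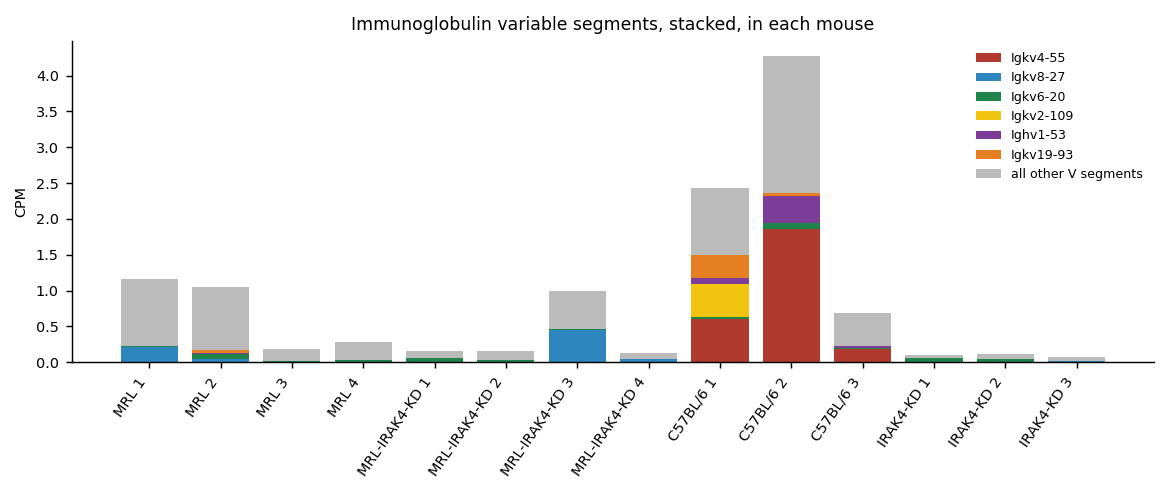
CPM (y axis, from 0) of all immunoglobulin variable segments in each of the 14 mice, stacked, with the 6 segments of the most counts in color and all others in grey. The C57BL/6 bars reach 0.686 to 4.27 CPM with Igkv4-55 in each, and the IRAK4-KD bars 0.0739 to 0.120 CPM.

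Kappa variable segments followed Igkc, whereas heavy variable segments were scarce beside Ighm. Across the 14 libraries the Spearman correlation of Igkc with the summed Igkv segments was 0.908. With the summed Ighv segments, that of Ighg2b was 0.828, the highest of the heavy chain members. It was 0.437 for Ighg3, 0.42 for Igha, 0.266 for Ighg2c, 0.253 for Ighm and -0.0244 for Ighg1. All are given as descriptions over libraries that share group and depth. Per 100 Igkc counts there were 7.29 to 58.7 Igkv counts. Per 100 Ighm counts there were 0.0962 to 3.28 Ighv counts, and no library had more than 247 Ighv counts against at least 5844 of Ighm. The joining segments Ighj summed to 6 to 64 counts. Of the 348 segments 74 were tested, and edgeR and limma-voom called 0 in each comparison. With no filter on low counts, and without MRL-IRAK4-KD replicate 4, edgeR called Igkv4-55 between IRAK4-KD and C57BL/6 mice (adjusted p = 0.0431 and 0.0315). The number at an unadjusted p below 0.05 was 16 of 74 for MRL against C57BL/6 mice, beside 5.55% of all genes. For IRAK4-KD against C57BL/6 mice it was 17, beside 3.8% of all genes. All were higher in C57BL/6, and DESeq2 called 1 of the 17, Ighv1-53. A test needed 10 counts in total, and C57BL/6 mice held up to 1228 variable counts against at most 48 in IRAK4-KD mice. Segments such as Igkv2-109, found in C57BL/6 only, entered through those counts, so the filter favoured this direction. The number was 8 for MRL against MRL-IRAK4-KD (11.4% of all genes), 0 for MRL-IRAK4-KD against IRAK4-KD (8.63%) and 7 for the interaction (4.17%). Counts of short, hypermutated segments may depend on how the reads were aligned and split, which was not tested.

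Over the 10 members, no gene passed an edgeR adjusted p of 0.05 in any comparison, and limma-voom called none either. DESeq2 called 1 in each of 3 comparisons, Ighg2c in MRL over C57BL/6, Ighg1 in MRL-IRAK4-KD over IRAK4-KD and Igkc in C57BL/6 over IRAK4-KD. DESeq2 also called more of all genes than edgeR did, 1.04% for MRL against MRL-IRAK4-KD, 0.533% for MRL against C57BL/6, 0.801% for MRL-IRAK4-KD against IRAK4-KD, 0.426% for IRAK4-KD against C57BL/6 and 0.158% for the interaction (397, 203, 305, 162 and 60 genes). Limma-voom called 213, 38, 275, 145 and 22 genes. The shares of all 38070 genes tested give the background for these counts. The comparisons of MRL with MRL-IRAK4-KD and with C57BL/6 share the MRL mice, and so do the others that meet in a group, so their values are given side by side and are not independent.

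For MRL against MRL-IRAK4-KD, 0.0972% of all genes were called at an adjusted p below 0.05 and 11.4% had an unadjusted p below 0.05, and 3 members had the latter, Ighg2b and Ighg2c higher in MRL (Ighg2b lower by limma-voom) and Ighg1 lower. None of the 10 had groups without overlap, against 5.26% of all genes. The median log2 fold change was 1.07 over the members, 8 of them above 0, and 0.0023 over all genes.

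For MRL against C57BL/6, 0.0% of all genes were called and 5.55% had an unadjusted p below 0.05, among them 3 members, Ighg1 and Ighg2c higher in MRL and Jchain lower. For 2 members, Ighg1 and Ighg2c, the groups did not overlap, against 9.63% of all genes. The median over the members was 0.86, with 6 above 0, and -0.0046 over all genes.

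For MRL-IRAK4-KD against IRAK4-KD, 0.0735% of all genes were called and 8.63% had an unadjusted p below 0.05, and so did 3 members, Ighg1, Ighg2c and Igkc, all higher in MRL-IRAK4-KD. Ighg1 and Ighg2c did not overlap, against 8.74% of all genes. The median was 0.81 over the members and 0.0 over all genes.

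For IRAK4-KD against C57BL/6, 0.147% of all genes were called and 3.8% had an unadjusted p below 0.05, and 2 members did, Igkc and Ighg2b, both lower in IRAK4-KD. All 10 members had a log2 fold change below 0, with a median of -1.14 against -0.0079 over all genes. On leaving out 1 mouse the sign changed for Ighm (up to 0.028), Ighg1 (3.15), Iglc1 (0.045) and Iglc2 (0.089). The 10 values come from the same mice and are not independent. Of the 10 members, 3 (Ighg2b, Igha and Igkc) had groups without overlap, against 11.2% of all genes. For the interaction as defined above, 0.00263% of all genes were called, 4.17% had an unadjusted p below 0.05, and Igkc was the member that did.

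Without the 3 libraries that stood apart, edgeR again called 0 members in each comparison. The members at an unadjusted p below 0.05 were then Igha and Ighg2b for MRL against MRL-IRAK4-KD, and Igha, Ighg2c and Ighg1 for MRL against C57BL/6. They were Ighg1 for MRL-IRAK4-KD against IRAK4-KD, Igkc and Ighg2b for IRAK4-KD against C57BL/6, and Igha for the interaction. DESeq2 without these libraries called Ighg2b and Igha for MRL against MRL-IRAK4-KD, Ighg2c for MRL against C57BL/6, and Igkc and Ighg2b for IRAK4-KD against C57BL/6, with 0 members in the others. Its background was 1.06%, 1.54% and 0.678% of all genes in these comparisons, 0.678% for MRL-IRAK4-KD against IRAK4-KD and 0.226% for the interaction.

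**Figure D5:**
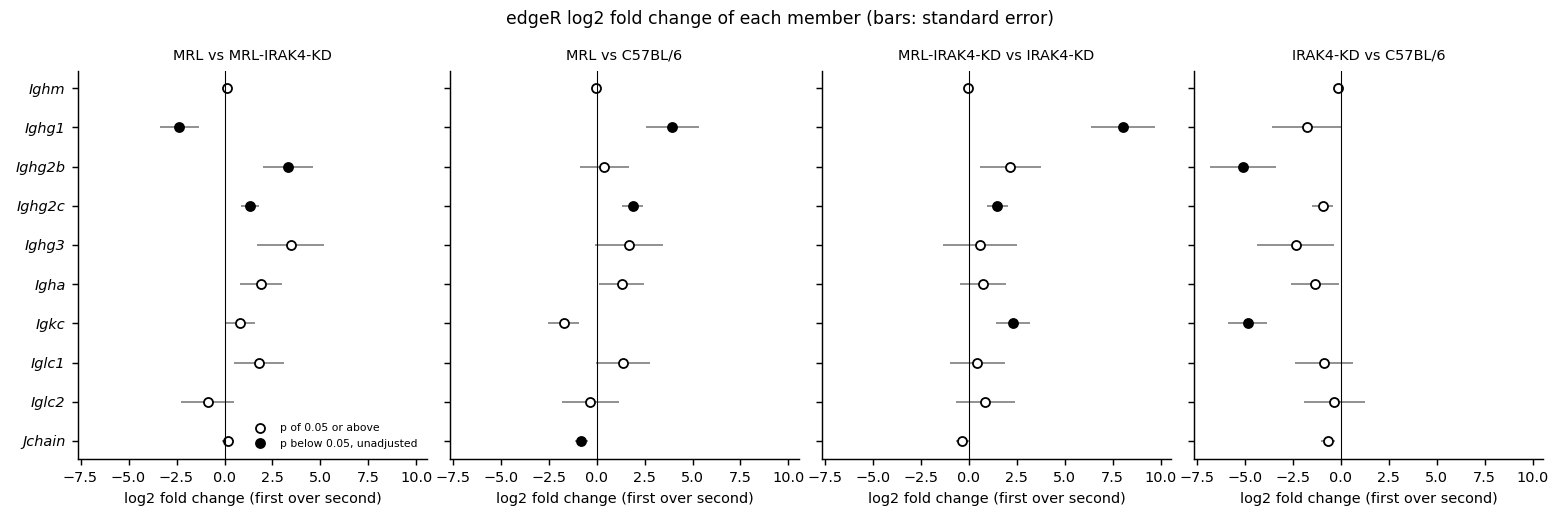
Log2 fold change by edgeR (x axis, first group over second) with its standard error as a bar, for each of the 10 genes (y axis) in 4 comparisons. Filled points have an unadjusted p below 0.05 and none has an adjusted p below 0.05. In IRAK4-KD against C57BL/6 all points lie left of 0, and Ighm lies within 0.14 of 0 in every panel. In that comparison Ighm, Ighg1, Iglc1 and Iglc2 changed sign on leaving out 1 mouse.

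On a list of 30 B cell genes, 29 were tested and edgeR and limma-voom called 0 in each comparison, with between 2 and 4 at an unadjusted p below 0.05. For MRL against C57BL/6 the lowest p was that of Ly6d (0.00399, adjusted p = 0.64), which DESeq2 called, and which had 23 to 109 counts in MRL and 0 in all C57BL/6 libraries. Cd79a, a signalling chain of the B cell receptor, had 0.564 ± 0.345 CPM (SD, n = 4) in MRL-IRAK4-KD and 0.401 ± 0.0416 (n = 4) in MRL mice. The MRL-IRAK4-KD mice ranged from 0.270 to 0.992 CPM and the MRL mice from 0.353 to 0.454 CPM. The highest was MRL-IRAK4-KD replicate 4, which stood apart and also had the highest sum of 8 B cell markers (2.70 CPM). The controls of Cd79a had 0.406 ± 0.182 (IRAK4-KD, n = 3) and 0.303 ± 0.106 (C57BL/6, n = 3). Ms4a1, which encodes CD20, was at 0 in 2 MRL, 2 MRL-IRAK4-KD and 1 C57BL/6 libraries and reached at most 102 counts.

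The list of 28 plasma cell and antibody secretion genes also had 0 called by edgeR and limma-voom in each comparison, with between 0 and 4 at an unadjusted p below 0.05. Without the 3 libraries that stood apart, 1 gene of it, Hspa5, which encodes the chaperone BiP, was called for MRL-IRAK4-KD against IRAK4-KD and for IRAK4-KD against C57BL/6, the 2 comparisons that share the IRAK4-KD mice. With all libraries its log2 differences there were -0.48 ± 0.16 and 0.42 ± 0.18 (edgeR, adjusted p = 0.553 and 1.0). Prdm1, a transcription factor of plasma cells that other cells also use, had 0.836 ± 0.162 CPM (n = 4) in MRL and 0.475 ± 0.162 (n = 4) in MRL-IRAK4-KD mice (edgeR log2 difference 0.81 ± 0.26, adjusted p = 0.408). Sdc1, which encodes syndecan-1, had 0.816 ± 0.241 and 0.763 ± 0.108 CPM in these groups. Tnfrsf17, which encodes the survival receptor BCMA, had 0.176 ± 0.0302 and 0.222 ± 0.0750 CPM, and Mzb1, a chaperone of IgM assembly, 0.132 ± 0.0691 and 0.134 ± 0.0906 CPM. Ly6c2, a surface protein of plasma cells, monocytes and T cells, had 1.76 ± 1.19 CPM in MRL and 0.411 ± 0.124 (n = 3) in C57BL/6 mice (edgeR adjusted p = 0.558), and DESeq2 called it. The 8 plasma cell markers summed to 3.91 to 4.60 CPM in MRL and 3.58 to 4.50 CPM in C57BL/6 mice. Their sum was 3.597 to 5.654 CPM in MRL-IRAK4-KD and 3.64 to 4.814 CPM in IRAK4-KD mice, and all groups overlapped. The value of 5.654 CPM was that of MRL-IRAK4-KD replicate 4, which stood apart. The median was highest in IRAK4-KD mice (4.504 CPM), against 4.194 in MRL-IRAK4-KD, 4.101 in MRL and 3.616 in C57BL/6 mice.

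Class switching and antibody transport gave no calls by edgeR or limma-voom. Of 15 class switching genes, 1 had an unadjusted p below 0.05 in each of the 3 comparisons with a lpr group. Of 6 transport genes, 3 had such a p for MRL against MRL-IRAK4-KD, 1 for MRL against C57BL/6 and 1 for MRL-IRAK4-KD against IRAK4-KD. Fcgrt, the neonatal Fc receptor that recycles IgG, had 18.3 ± 6.28 CPM (n = 4) in MRL-IRAK4-KD and 15.8 ± 0.386 (n = 4) in MRL mice. The MRL-IRAK4-KD mice ranged from 14.5 to 27.65 CPM and the MRL mice from 15.3 to 16.2 CPM. The value of 27.65 CPM was that of MRL-IRAK4-KD replicate 4, which stood apart, and the higher mean of its group rested on it. The controls had 11.4 ± 2.12 (IRAK4-KD, n = 3) and 13.9 ± 1.68 (C57BL/6, n = 3) CPM of Fcgrt. B2m, its light subunit and that of MHC class I, had 126 ± 38.7 CPM in MRL and 72.8 ± 2.20 in C57BL/6 mice (edgeR log2 difference 0.80 ± 0.19, adjusted p = 0.556), and DESeq2 called it. Pigr, which carries polymeric antibody across epithelia, had at most 17 counts. Of 5 further constant genes 3 were tested, and Ighd, the IgD gene next to Ighm, had 0.499 ± 0.0797 CPM in IRAK4-KD, 0.418 ± 0.0767 in C57BL/6, 0.434 ± 0.141 in MRL-IRAK4-KD and 0.379 ± 0.0699 in MRL mice, with no edgeR p below 0.05 among the 3. Ighe, the IgE gene, was at 0 in all libraries.

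By the rank of the libraries, the genes most like the summed level of the 10 members were Gm30893 (Spearman correlation 0.859), Klhl38 (0.842), Pcdh11x, D430020J02Rik, Gm14508, Agbl1, C78197, A930003O13Rik, Fggy and Cd226 (0.763). They are the highest of 23385 genes over 14 libraries, a description with no test, and the sum they follow is mostly Ighm.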

How the data were processed

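Bulk RNA-seq counts of 14 hippocampi were used. Per the submitters' processing notes, HISAT2 2.1.0 placed the reads on mm10, and the authors deposited raw StringTie 2.1.0 counts of genes and of transcripts, as whole numbers with no scaling. These are rebuilt from coverage, and in each library they exceed the total reads listed for it. MRL replicate 1 had 484088173 counts over Ensembl genes against 232563988 reads. Counts are thus not independent reads, and the intervals on counts, Wilson intervals included, are too narrow even for counting error. Rows without an Ensembl gene identifier were left out of library sizes and tests, and the Ensembl genes held between 99.8% and 99.97% of the counts of a library. The annotation is not given in the sources used here, and the identifiers are those of GENCODE M21. The labels name a KAPA mRNA preparation and the study's methods a SMART-seq one, and whether strand was used in counting is not stated.

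Genes with at least 10 counts in total (38070 of 55536 Ensembl genes) entered 1 model of the 4 labelled groups in edgeR (4.0.16, R 4.3.3; quasi-likelihood, robust, TMM), with Benjamini-Hochberg adjustment over all genes. The SE of an edgeR log2 difference was derived from the difference and the F statistic of its test. The study used DESeq2, which was run as an alternative (1.42.0), as was limma-voom (limma 3.58.1). Each member had a 2-sided exact permutation test too, on log2(CPM + 0.1), which cannot give a p below 0.0286 for 4 mice against 4, 0.0571 for 4 against 3 and 0.1 for 3 against 3. Levels per length are transcript CPM divided by transcript length in kilobases, summed over the gene. All 10 members were named, and genes of other lists only if defining or among the lowest p. The members and lists were chosen with earlier results of these data known. The code was tested on simulated data.

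The alternatives were RLE factors, library size only, DESeq2, limma-voom, no filter, filterByExpr, only the groups compared, a replicate block, halved counts, each mouse left out, the 3 libraries that stand apart left out, and a pseudocount of 1. Added after seeing the data were DESeq2 without those 3 libraries, the counting ratios without each mouse, and the sums and transcript shares without those libraries. Total counts per library were between 279723718 and 571925600, and p-values measure the spread between mice of 1 library each. Figures were drawn with matplotlib 3.10.9.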

Additional observations from a re-analysis of the deposited data

Results flagged for a closer look

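In groups of 4 mice, a mouse was singled out where its gap to the nearest other mouse took up most of the group's range, by Dixon's criterion at 95%. Of 20 groups examined, 4 held such a mouse, and chance alone would flag about 1 in 20 groups of normally distributed values. MRL replicate 1 had 0.393 CPM of Ighg3, against at most 0.0444 in the other MRL mice, and 0.183 CPM of Iglc1, against at most 0.0251. MRL-IRAK4-KD replicate 2 had 0.0449 CPM of Ighg3, the other mice of its group being at 0, and in such a group any mouse above 0 is singled out whatever its level. MRL-IRAK4-KD replicate 4 had 0.222 CPM of Igha, against at most 0.0646 in the others of its group.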

How the results depend on the processing

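With edgeR, 0 members were called in each of the 5 comparisons under every alternative and in all 14 fits without 1 mouse, and DESeq2 called 1 member each for MRL against C57BL/6, MRL-IRAK4-KD against IRAK4-KD and IRAK4-KD against C57BL/6 (log2 1.89 for Ighg2c, 8.16 for Ighg1 and -4.83 for Igkc). DESeq2 without the 3 libraries that stand apart was chosen after seeing the data. It called 2 members for MRL against MRL-IRAK4-KD, 1 for MRL against C57BL/6 and 2 for IRAK4-KD against C57BL/6. Of the plasma cell list it called 1, 1 and 3 genes in these comparisons and 4 each in the others. It also called 2 B cell genes for MRL against C57BL/6. For MRL against MRL-IRAK4-KD and for MRL against C57BL/6 it called 1 antibody transport gene each. Beside these counts, it called 1.06%, 1.54% and 0.678% of all genes in the comparisons first named. It called 0.678% for MRL-IRAK4-KD against IRAK4-KD and 0.226% for the interaction. Of 1240 alternative log2 fold changes of members, 63 changed sign, none of them past the threshold, 38 of these on leaving out 1 mouse. The cause was not tested. The largest of those not from leaving out 1 mouse came with limma-voom with quality weights, which weighs libraries unequally. Depth limits Ighg3, Iglc1, Iglc2 and the variable segments, which rest on few counts or none in most libraries.

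With limma-voom, MRL over MRL-IRAK4-KD became -0.90 for Ighg2b, -1.10 for Igha, 0.27 for Iglc2 and -0.043 for Jchain. MRL over C57BL/6 became 0.013 for Ighm, -2.77 for Ighg2b and -2.53 for Igha. MRL-IRAK4-KD over IRAK4-KD became -0.92 for Ighg3, -0.20 for Igha and -0.57 for Iglc2, and the interaction of Igha became 2.33. Without the 3 libraries that stand apart, MRL-IRAK4-KD over IRAK4-KD became 0.092 for Ighm, -0.53 for Igha and -0.72 for Iglc1, IRAK4-KD over C57BL/6 became 0.086 for Iglc2, and the interaction of Ighm became 0.20. DESeq2 without them gave 0.092, -0.53, -0.75, 0.089 and 0.21 for these.

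The labels number the mice alike in each group, but the numbers do not pair them. Over 19 pairs of the same number, deviations from the group means correlated at a median of -0.0127, against -0.00754 over 54 pairs of different numbers, and 4 of 14 libraries correlated best with their own number. The replicate block left 0 members called and turned Ighm to 0.0053 (MRL over C57BL/6) and 0.0025 (MRL-IRAK4-KD over IRAK4-KD), and the interactions of Igha to 0.15 and Iglc1 to 0.28.

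Leaving out each mouse in turn gave these ranges where a sign changed. MRL over MRL-IRAK4-KD was -1.30 to 0.52 for Iglc2 and -0.13 to 0.39 for Jchain. MRL over C57BL/6 was -0.14 to 0.13 for Ighm, -0.51 to 1.63 for Ighg2b, -0.26 to 3.28 for Ighg3, -0.26 to 2.32 for Iglc1 and -0.75 to 0.10 for Iglc2. MRL-IRAK4-KD over IRAK4-KD was -0.19 to 0.14 for Ighm, -4.71 to 5.28 for Ighg3, -0.14 to 1.11 for Igha, -0.14 to 1.78 for Iglc1 and -0.51 to 2.31 for Iglc2. IRAK4-KD over C57BL/6 was -0.30 to 0.028 for Ighm, -4.89 to 3.15 for Ighg1, -2.20 to 0.045 for Iglc1 and -1.76 to 0.089 for Iglc2. The interaction was -0.17 to 0.16 for Ighm, -0.81 to 7.25 for Ighg1, -6.40 to 3.58 for Ighg3, -1.47 to 0.56 for Igha, -1.88 to 0.75 for Iglc1 and -0.21 to 2.64 for Iglc2. Of 40 member comparisons, 7 had groups without overlap, and 7 to 11 did on leaving out 1 mouse. The 11 came without MRL-IRAK4-KD replicate 2. With all mice, the share of all genes without overlap was 5.26% for MRL against MRL-IRAK4-KD and 9.63% for MRL against C57BL/6. It was 8.74% for MRL-IRAK4-KD against IRAK4-KD and 11.2% for IRAK4-KD against C57BL/6. Smaller groups separate more easily by chance. The share of all genes without 1 mouse was not computed, so the rise cannot be read.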
